A study of Mus musculus with 6 samples.

Results

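The phosphatase and actin regulator (Phactr) genes of the mouse are Phactr1, Phactr2, Phactr3 and Phactr4. They were taken by name from the GENCODE annotation of the mouse genome mm9, and they are 4 of 22367 protein-coding genes. Phactr3 was followed in most detail, and the other genes of the family, its paralogues, were measured beside it. Chromatin of the hippocampus had been sequenced in 6 libraries, which were an H4K5ac-ChIP library (precipitated with an antibody to acetylated lysine 5 of histone H4), a mock precipitation with IgG (IgG-IP) and genomic DNA without precipitation (input) for each of 2 groups. Fear-conditioned mice (FC) were given foot shocks in 2 contextual sessions, whereas the CON group only explored the same context. All were C57/BL6 mice with a labelled age of 6 months, described in the study as males of 4 to 7 months, and the hippocampus was collected 1 h after a memory test on day 3. The study described 3 hippocampal samples for each group, but there was 1 library for each group and antibody, so variation from mouse to mouse could not be measured and no p-value is given.

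Phactr proteins bind protein phosphatase 1 (PP1) through their C terminus and monomeric actin through RPEL repeats, so they connect the phosphatase to the state of the actin cytoskeleton. Phactr3, also called scapinin, and Phactr1 are known as genes of the nervous system, whereas Phactr2 and Phactr4 are expressed in a wider range of tissues. H4K5ac is a mark of open chromatin that is found at the starts and along the bodies of transcribed genes. The hippocampus is a mixture of neurons, glia and vessels, and in whole tissue a lower acetylation in every cell and a smaller number of acetylated cells cannot be told apart.

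Density is given throughout as reads per kb of sequence, scaled to aligned library size (RPKM), with an exact Poisson 95% interval, and ratios have the exact 95% interval of a binomial share. Both cover counting error only, since amplified reads without molecular identifiers are not independent molecules. The libraries held 14549689 to 45673239 aligned reads, of which 11.5 to 17.8% shared both position and strand with an earlier one. Among 8 genes named as markers of hippocampal neurons, 4 in FC and 2 in CON had more than 2-fold more H4K5ac-ChIP than IgG-IP along the gene, compared with 33.4% and 25% of all protein-coding genes, with median log2 ratios of 1.08 and 0.94. Of 7 measurable genes of tissues outside the brain none did, with medians of -0.13 and -0.48. Over input in CON, each list had 1 gene past 2-fold, so the share of neuron markers called was no check of the tissue in CON.

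The genes differ in length and layout. Phactr1 lies on the plus strand at chr13:42775992-43233895 (458 kb) with 17 annotated transcripts from 11 separate starts. Phactr2 lies on the minus strand at chr10:12933201-13194202 (261 kb) with 6 transcripts from 3 starts. Phactr3 lies on the plus strand at chr2:177853680-178073197 (220 kb) with 8 transcripts from 5 starts. Phactr4 lies on the minus strand at chr4:131911838-131978404 (66.6 kb) with 6 transcripts from 3 starts. GC content of the gene was 48.4% in Phactr3, compared with 43.7% in Phactr1, 42.3% in Phactr2 and 44.3% in Phactr4. Genes annotated inside Phactr1 (Gm15809, Gm15810, Gm15812, Gm15813 and a 7SK copy) share its reads.

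The bases before the annotated starts differed in CG content within the family. Each run below is the 150 bases upstream of a start in mm9, written 5′ to 3′ on the strand of the gene, with CG dinucleotides in capitals. None overlaps an annotated exon of its gene. The starts shown are the first of each gene and some of the internal starts near which the profile of H4K5ac was described.
Phactr3 start 1 (chr2:177853530-177853679, plus strand): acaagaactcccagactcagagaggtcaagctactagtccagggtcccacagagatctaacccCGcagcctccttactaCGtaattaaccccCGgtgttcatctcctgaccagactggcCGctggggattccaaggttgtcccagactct
Phactr3 start 3 (chr2:177909904-177910053, plus strand): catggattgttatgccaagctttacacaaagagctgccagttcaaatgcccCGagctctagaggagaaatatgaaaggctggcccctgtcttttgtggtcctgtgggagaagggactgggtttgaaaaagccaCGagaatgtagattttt
Phactr3 start 4 (chr2:177927639-177927788, plus strand): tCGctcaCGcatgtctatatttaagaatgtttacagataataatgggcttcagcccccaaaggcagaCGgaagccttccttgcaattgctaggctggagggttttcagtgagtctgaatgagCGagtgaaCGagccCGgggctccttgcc
Phactr1 start 1 (chr13:42775842-42775991, plus strand): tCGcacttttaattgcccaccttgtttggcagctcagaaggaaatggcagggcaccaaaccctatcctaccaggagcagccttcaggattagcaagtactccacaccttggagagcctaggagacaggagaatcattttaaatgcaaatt
Phactr1 start 5 (chr13:42961466-42961615, plus strand): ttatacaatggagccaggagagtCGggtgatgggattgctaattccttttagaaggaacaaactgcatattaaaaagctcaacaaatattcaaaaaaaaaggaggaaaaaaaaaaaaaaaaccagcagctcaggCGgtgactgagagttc
Phactr2 start 1 (chr10:13194203-13194352, minus strand): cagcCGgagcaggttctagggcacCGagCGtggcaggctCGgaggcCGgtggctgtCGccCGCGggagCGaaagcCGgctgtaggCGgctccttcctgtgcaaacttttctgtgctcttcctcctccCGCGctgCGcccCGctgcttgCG
Phactr2 start 3 (chr10:13044096-13044245, minus strand): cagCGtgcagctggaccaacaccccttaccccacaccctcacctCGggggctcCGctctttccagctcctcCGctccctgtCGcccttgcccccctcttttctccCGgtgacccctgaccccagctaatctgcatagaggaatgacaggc
Phactr4 start 1 (chr4:131978405-131978554, minus strand): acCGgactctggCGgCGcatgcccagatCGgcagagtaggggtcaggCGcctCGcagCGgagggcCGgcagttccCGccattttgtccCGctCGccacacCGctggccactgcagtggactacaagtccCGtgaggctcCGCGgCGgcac

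The first starts of Phactr2 and Phactr4 held 16 CG each in these 150 bases, more than 84.5% of 22364 protein-coding genes, whose median was 6. The first start of Phactr3 held 4 and that of Phactr1 held 1, with 39.2% and 12.6% of genes below them. At Phactr3 the third and the fourth start held 2 and 6 CG, that of Phactr1 held 2 and that of Phactr2 held 6. Over the 2 kb centred on a start, the ratio of observed to expected CG was 0.595 and 0.692 at the first and the third start of Phactr2 and 0.662 at the first start of Phactr4. It was 0.442 at the first start of Phactr3 and 0.247 at that of Phactr1. The genes with the CG-rich first starts, Phactr2 and Phactr4, were those with less H4K5ac-ChIP per kb along the gene. In ratios to a control, the intervals of Phactr4 and Phactr1 overlapped in every comparison but that with input in FC. A relation between CG and H4K5ac was not tested.

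Along the gene, H4K5ac was highest at Phactr3, followed by Phactr1, Phactr4 and Phactr2, in the same order in both H4K5ac-ChIP libraries. Phactr3 had 1.29 RPKM in FC and 1.15 in CON H4K5ac-ChIP, compared with 0.382 and 0.413 in IgG-IP and 0.682 and 0.474 in input. Phactr1 had 0.905 and 0.885 RPKM in H4K5ac-ChIP, 0.400 and 0.418 in IgG-IP, and 0.518 and 0.470 in input. Phactr4 had 0.729 and 0.743 in H4K5ac-ChIP, 0.341 and 0.364 in IgG-IP, and 0.475 and 0.397 in input. Phactr2 was the exception of the family, since its H4K5ac-ChIP (0.425 and 0.429) lay below its IgG-IP (0.442 and 0.473) and its input (0.478 and 0.451) in both groups. In IgG-IP of both groups Phactr2 was the highest of the family and Phactr4 the lowest.

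These levels rested on 8971 and 9113 reads at Phactr3 in FC and CON H4K5ac-ChIP, 13097 and 14573 at Phactr1, 3503 and 4025 at Phactr2, and 1533 and 1779 at Phactr4. The intervals of genes next to each other in the order did not overlap in either library. In FC they ran from 1.27 to 1.32 RPKM at Phactr3, from 0.889 to 0.921 at Phactr1, from 0.693 to 0.766 at Phactr4 and from 0.411 to 0.439 at Phactr2. Among all protein-coding genes, with a median of 0.549 RPKM in FC and 0.541 in CON, Phactr3 stood above 98.6% and 98.4% of genes. Phactr1 stood above 88.3% and 90.6%, Phactr4 above 73.0% and 77.8%, and Phactr2 above 36.6% and 37.9%.

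**Figure D1:**
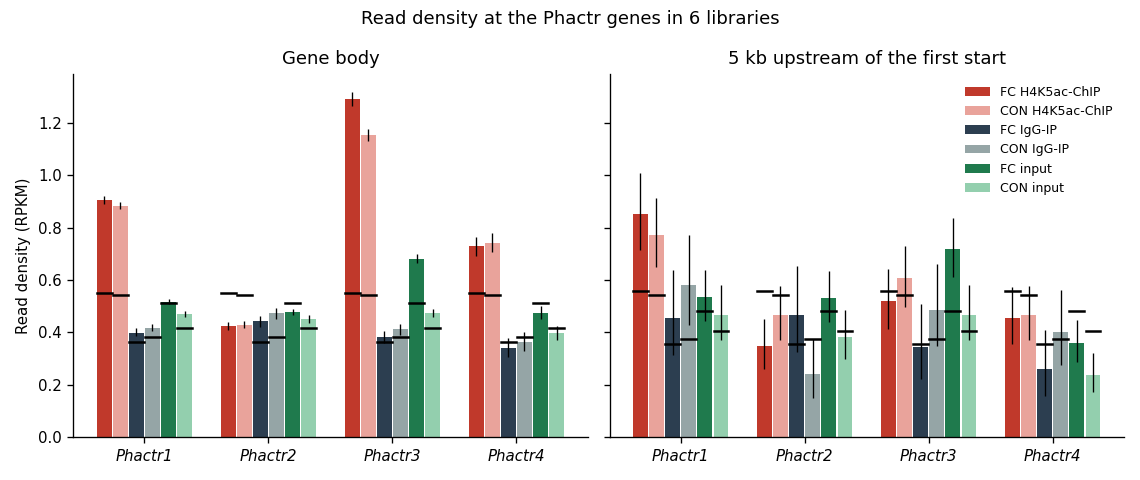
Read density (RPKM, vertical axis, from 0) of the 4 Phactr genes in the 6 libraries, over the gene body (left) and the 5 kb upstream of the first annotated start (right); bars are single libraries, error bars are exact Poisson 95% intervals, and the short black lines are medians of all protein-coding genes in that library. Over the body, the H4K5ac-ChIP bars of Phactr3 (1.29 and 1.15) are the tallest and those of Phactr2 (0.425 and 0.429) lie below its IgG-IP bars.

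Relative to IgG-IP, H4K5ac-ChIP at Phactr3 had a log2 ratio of 1.76 (1.67 to 1.85) in FC and 1.48 (1.40 to 1.56) in CON, which is 3.39-fold and 2.80-fold. Phactr1 had 1.18 (1.12 to 1.24) and 1.08 (1.03 to 1.14), and Phactr4 had 1.10 (0.92 to 1.27) and 1.03 (0.87 to 1.19). Phactr2 had -0.06 (-0.14 to 0.03) and -0.14 (-0.22 to -0.06), so that it was not above IgG-IP in either group. Past 2-fold were 3 of the 4 genes in FC, where 33.4% of all protein-coding genes were past it, and 3 of 4 in CON, where 25% were. The interval of Phactr4 reached below 2-fold in both groups, with 1.90 to 2.42 in FC and 1.83 to 2.28 in CON. With 1 read per position and strand, 3 of 4 genes in FC (29% of all genes) and 2 of 4 in CON (21.7%) were past 2-fold. The median gene itself stood at 0.70 in FC and 0.61 in CON. Relative to that median, Phactr3 had 1.05 and 0.87, Phactr1 0.47 and 0.47, Phactr4 0.39 and 0.41, and Phactr2 -0.76 and -0.76. On that scale Phactr3 alone was past 2-fold in FC, 1 of 4 against 7.38% of all genes, and 0 of 4 were in CON, against 4.25%.

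Relative to input, the order of the genes was the same in FC, with log2 ratios of 0.92 at Phactr3, 0.80 at Phactr1, 0.62 at Phactr4 and -0.17 at Phactr2. In CON the ratios were 1.28, 0.91, 0.90 and -0.07. Past 2-fold over input were 0 of the 4 genes in FC, where 4.08% of all genes were, and 1 of 4 in CON, where 14.5% were. Phactr2 was below 0 with each control and in each group, with intervals that excluded 0 in all but the comparison with IgG-IP in FC. Phactr3 stood above 93.4 to 95.2% of genes in the 4 ratios to a control, Phactr1 above 75.3 to 89.7%, Phactr4 above 71.5 to 80.6% and Phactr2 above 31.7% at most.

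Phactr3 was the most GC-rich gene of the family, and genes of its GC content had higher ratios to IgG-IP than genes of the GC content of its paralogues. Genes in the same 1% step as Phactr3 had a median log2 ratio of 0.92 in FC and 0.77 in CON, and Phactr3 exceeded them by 0.84 and 0.71. The corresponding excess was 0.63 and 0.59 at Phactr1 and 0.47 and 0.47 at Phactr4, whereas Phactr2 lay at -0.52 and -0.60. The order of the family was therefore the same after this comparison, and 0 of 4 genes exceeded their GC median by 2-fold, against 3.06% of all genes in FC and 2.62% in CON.

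**Figure D2:**
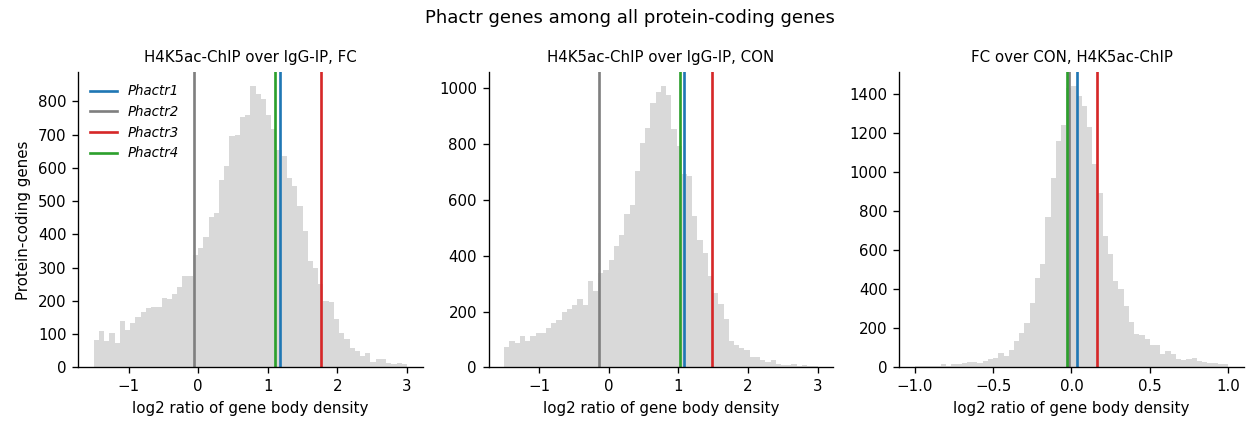
Log2 ratios of gene body density (horizontal axes) of all protein-coding genes with enough reads (grey histograms, number of genes on the vertical axis), with the 4 Phactr genes as coloured lines, for H4K5ac-ChIP against IgG-IP in each group and for FC over CON H4K5ac-ChIP; genes beyond the axis limits are not drawn. Phactr3 lies in the right flank of the first pair of histograms (1.76 and 1.48) and Phactr2 in the left (-0.06 and -0.14), while all 4 lie near the centre of the FC over CON histogram.

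H4K5ac along Phactr3 was low after its first annotated start and higher after the second. The stretch from the first to the second start (23.0 kb) had 0.834 RPKM (0.769 to 0.903) in FC and 0.738 (0.680 to 0.799) in CON H4K5ac-ChIP. The next 33.4 kb, between the second and the third start, had 1.61 (1.54 to 1.69) and 1.44 (1.38 to 1.51), the highest of the gene. Between the third and the fourth start there were 1.15 and 1.19 RPKM, from the fourth to the fifth 1.35 and 1.18, and from the fifth to the end 0.836 and 0.796. The 20 kb upstream of the gene had 0.448 and 0.428 RPKM and the 20 kb downstream 0.456 and 0.546. IgG-IP was between 0.355 and 0.450 RPKM in all of the segments of the gene, so that its profile did not follow these steps.

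In windows of 5 kb, FC H4K5ac-ChIP at Phactr3 rose from 0.626 RPKM at the first window of the gene to 2.19 at the window centred 37.5 kb from the start, and CON rose from 0.595 to 1.84 at the same window. In the last window of the gene, centred at 217.5 kb, they were 0.443 and 0.534. The density thus rose between the first and the second start and fell near the annotated end. FC input fell there too, from 0.498 RPKM in the last segment to 0.293 in the 20 kb downstream, and the FC log2 ratio over input was 0.75 before and 0.63 after the end, compared with 0.52 and 0.39 in CON. At the start of the gene, the ratio over input was -0.04 and 0.10 in the 20 kb upstream, 0.29 and 0.69 in the first segment and 1.21 and 1.65 in the second. Sequence further upstream was poorly covered in every library, with 9 to 16 reads per 5 kb window in the input libraries from 45 to 35 kb before the start.

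Phactr1 fell after its first start before it rose. The 20 kb upstream had 0.731 RPKM in FC and 0.702 in CON H4K5ac-ChIP. From its first start to the fourth (28.9 kb), H4K5ac-ChIP had 0.492 RPKM in FC and 0.476 in CON, near its IgG-IP of 0.366 and 0.461. Over the next 157 kb, up to the fifth start, it had 0.829 and 0.799, and over the 246 kb that followed 0.994 and 0.987. Its log2 ratio over IgG-IP was 0.43 and 0.05 in the first of these segments, 1.01 and 0.95 in the second, and 1.29 and 1.23 in the third. Unlike Phactr3, the density did not fall at the end of Phactr1, since the 20 kb downstream had 0.965 and 0.863 RPKM.

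Phactr2 had low density over its first segments and a higher one after the third start. From the first to the second start (85.4 kb) H4K5ac-ChIP had 0.339 and 0.341 RPKM, a log2 ratio over IgG-IP of -0.30 and -0.55. From the third start to the end (111 kb) it had 0.519 and 0.496, with 0.22 and 0.12. The highest 5 kb window of the gene was the same in both libraries, centred 152.5 kb from the first start and 2.39 kb after the third, with 0.842 RPKM in FC and 0.840 in CON. A window centred at 17.5 kb was nearly empty in every library (0.0832 and 0.101 RPKM in input), so part of the low density of the first segment is shared with the controls.

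The 3 segments of Phactr4 had 0.682, 0.714 and 0.834 RPKM in FC and 0.765, 0.717 and 0.756 in CON. In FC the intervals of the first and last segments did not overlap, at 0.624 to 0.743 and 0.753 to 0.921, and in CON those of all 3 did. Upstream, the 20 kb before the first start had 0.358 and 0.295, below the gene, and the 20 kb downstream, where Rcc1 begins after 2.32 kb, had 0.794 and 0.795. The borders of the segments were chosen after the profiles had been seen, as annotated starts at least 15 kb apart, and segments of a gene share their libraries and are not replicates.

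**Figure D3:**
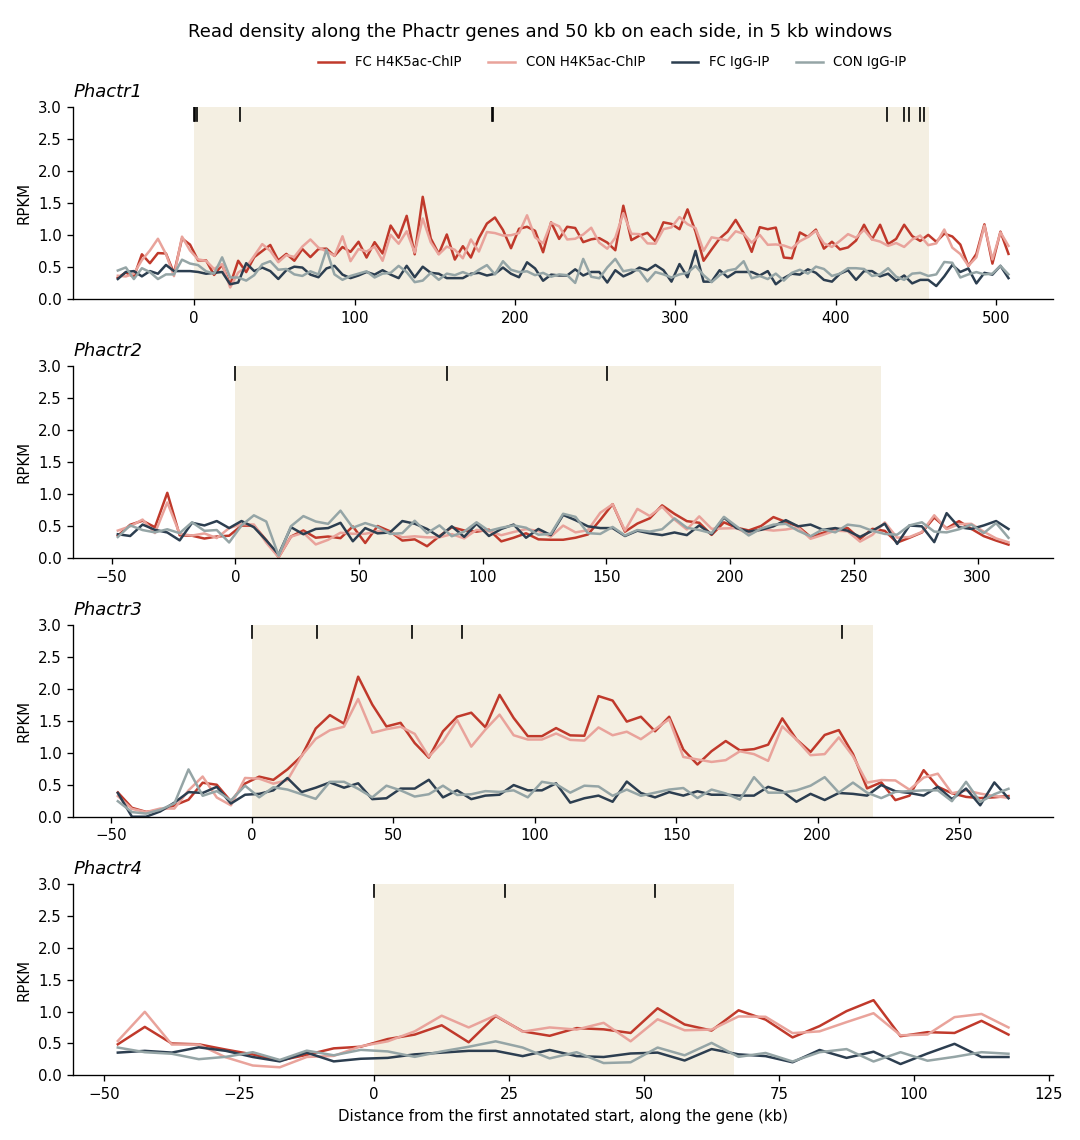
Read density (RPKM, vertical axes) in 5 kb windows along each Phactr gene and 50 kb on each side, against distance from the first annotated start in kb (horizontal axes), for H4K5ac-ChIP and IgG-IP of FC and CON; the shaded stretch is the gene and the short black marks are annotated starts. At Phactr3 both H4K5ac-ChIP lines climb from 0.626 and 0.595 at the start to 2.19 and 1.84 at 37.5 kb and fall at the end of the gene, while at Phactr2 they cross the IgG-IP lines in the first segment and lie above them at 152.5 kb (0.842 and 0.840).

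Around the starts themselves (1 kb on each side), the first start of Phactr3 was the lowest of its 5 starts in both libraries, with 0.506 RPKM from 32 reads in FC and 0.612 from 44 reads in CON. The second had 1.39 and 1.07, the third 1.58 and 1.78, the fourth 2.07 and 1.46, and the fifth, the start of a retained-intron transcript, 1.30 and 1.04. Log2 ratios over IgG-IP were 1.07 and 0.25 at the first start, compared with 1.53 to 2.74 in FC and 2.13 to 2.82 in CON at the other 4. These ratios rested on 5 to 17 IgG-IP reads. In FC the interval of the first start (-0.13 to 2.50) overlapped those of all 4 others. In CON its interval (-0.59 to 1.15) lay below all of them. At Phactr1 the fifth start had 1.87 and 1.32 RPKM, compared with 0.870 and 0.932 at the first, and log2 ratios of 2.44 (FC) and 1.64 (CON) compared with 1.08 and 0.94. The intervals of these ratios overlapped in FC (1.51 to 3.54 and 0.16 to 2.11) and in CON (0.82 to 2.56 and 0.14 to 1.83). At Phactr2 the first and the third start had 0.601 and 0.712 RPKM in FC and 0.501 and 0.667 in CON, above the second with 0.348 and 0.431. At Phactr4 the CG-rich first start had the lowest density of the gene, with 0.791 and 0.570 RPKM. The second had 0.870 and 0.918 and the third 0.981 and 1.08. Input was also lowest at the first start, with 0.383 and 0.169 RPKM. Over input, the first start had the highest log2 ratios of the gene, 1.05 and 1.75. The second had 0.95 and 0.74 and the third 0.60 and 1.14. Over IgG-IP the 3 starts had 1.52, 0.96 and 1.25 in FC and 1.06, 1.01 and 1.07 in CON. These windows held 22 to 78 H4K5ac-ChIP reads at Phactr2 and Phactr4, and the first start of Phactr4 held 12 reads in CON input.

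In the 5 kb upstream of the first start, usually taken as the promoter, no member was past 2-fold over a control. The reads were few, with 82 and 109 at Phactr3 in FC and CON H4K5ac-ChIP, 135 and 139 at Phactr1, 55 and 84 at Phactr2, and 72 and 84 at Phactr4. The density was 0.519 and 0.606 RPKM at Phactr3, which is less than along its body, and 0.854 and 0.773 at Phactr1, above 81.6% and 76.9% of promoters. Phactr2 had 0.348 and 0.467 and Phactr4 0.456 and 0.467. Past 2-fold over IgG-IP were 0 of 4 promoters in FC, where 35.8% of all promoters were, and 0 of 4 in CON, where 29.2% were. Past 2-fold over input were also 0 of 4 in each group, compared with 9% and 19.3% of promoters. The highest of these was Phactr4 in CON, with a log2 ratio over input of 0.98, above 79.5% of promoters. Log2 ratios over IgG-IP were 0.59 (-0.07 to 1.30) and 0.32 (-0.21 to 0.88) at Phactr3 and 0.91 (0.36 to 1.51) and 0.41 (-0.07 to 0.91) at Phactr1, so in CON neither was separated from IgG-IP by its counting interval. With promoters of 2 kb the counts differed. Past 2-fold over IgG-IP were then Phactr1 (2.26-fold) and Phactr4 (2.47-fold) in FC, 2 of 4 against 52.6% of promoters, and Phactr2 (2.25-fold) in CON, 1 of 4 against 44.8%. Over input, Phactr4 alone was past 2-fold, with 2.30-fold (1.39 to 3.87) in FC and 3.78-fold (1.97 to 7.85) in CON, where 23.8% and 35.3% of promoters were.

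The single windows of 1 kb with the most reads in CON H4K5ac-ChIP were read in the other libraries, which had not chosen them. At Phactr3 they were the introns at chr2:177888680-177889679, chr2:177908680-177909679 and chr2:177939680-177940679. The first had 79 reads in CON and 73 in FC H4K5ac-ChIP, compared with 4 in each IgG-IP library. In FC it ranked 4 among the 219 windows of the gene, and the others ranked 41 and 2. In Phactr1 the top CON window ranked 13 of 457 in FC, and in Phactr2 18 of 261. The top CON window of Phactr4, with coding exon sequence, also led in FC, with 53 reads against 52 in CON. The same window had the highest CON input density of any 1 kb window of that gene, 0.902 RPKM. Relative to input, CON gave it a log2 ratio of 0.68, with counting limits of 0.02 and 1.36. FC gave 1.45, with limits of 0.76 and 2.17. Along all of Phactr4 these ratios were 0.90 (CON) and 0.62 (FC).

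Over all windows of 1 kb, the FC and CON H4K5ac-ChIP libraries had Spearman correlations of 0.69 in Phactr3 (219 windows), 0.56 in Phactr1 (457), 0.49 in Phactr2 (261) and 0.50 in Phactr4 (66). The IgG-IP libraries had -0.08 in Phactr3, 0.07 in Phactr1, 0.15 in Phactr2 and 0.16 in Phactr4, and H4K5ac-ChIP with IgG-IP of the same group had 0.02 to 0.32 over the 4 genes. With input of the same group, H4K5ac-ChIP had 0.43 in Phactr1, 0.28 in Phactr2, 0.24 in Phactr3 and 0.29 in Phactr4 in FC, and 0.12 to 0.35 in CON. These correlations are across neighbouring windows of single libraries of different depth, and are a description of how far the profile recurred in the second H4K5ac-ChIP library.

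Exons of Phactr3 had less H4K5ac than its introns. Over the union of its annotated exons (6407 bp) there were 0.790 RPKM in FC and 0.712 in CON H4K5ac-ChIP, compared with 1.31 and 1.17 in introns. The log2 ratio of exons over introns was -0.73 (-0.96 to -0.50) and -0.71 (-0.95 to -0.49). It was -0.20 in both IgG-IP libraries, with intervals that included 0, -0.54 in FC input and -0.11 in CON input. At Phactr1 H4K5ac-ChIP had 0.24 (0.08 to 0.40) for FC and 0.05 (-0.11 to 0.21) for CON, while FC and CON input had 0.23 (0.05 to 0.41) and -0.04 (-0.28 to 0.19). At Phactr2 H4K5ac-ChIP had 0.09 and 0.11, and all 6 libraries had intervals that included 0. At Phactr4 exons were above introns in all 6 libraries, by 0.36 and 0.26 in H4K5ac-ChIP and by 0.28 to 0.51 in the controls. The intervals of both IgG-IP libraries and of CON input included 0 there. Position along the gene was not separated from exon sequence.

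Between the groups, the members differed little. FC over CON H4K5ac-ChIP along the gene had a log2 ratio of 0.16 (0.12 to 0.21) at Phactr3, 1.12-fold, 0.03 (-0.00 to 0.07) at Phactr1, -0.01 (-0.08 to 0.05) at Phactr2 and -0.03 (-0.13 to 0.07) at Phactr4. None of the 4 genes was past 1.2-fold, either higher in FC (14.9% of all protein-coding genes) or lower (6.05%). The median of all genes was 0.04, and 74.0% of genes lay below Phactr3, 48.4% below Phactr1, 38.1% below Phactr2 and 35.0% below Phactr4. Only at Phactr3 did the counting interval exclude 0, and with 1 library on each side it compares those libraries and not the conditions. The study had already called Phactr3 higher in FC than in control with peak-calling programs, from the same experiment. Its contrast with the paralogues was therefore not an independent result.

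The controls differed between the groups as well. The log2 ratio of FC over CON input was 0.52 (0.47 to 0.58) at Phactr3, 0.26 at Phactr4, 0.14 at Phactr1 and 0.08 at Phactr2, with a median of 0.31 over all genes. Genes of the same GC content had medians of 0.52, 0.26, 0.18 and 0.09 in the same order, so that each member was within 0.05 of them. FC over CON IgG-IP was -0.11 at Phactr3, -0.07 at Phactr1, -0.10 at Phactr2 and -0.10 at Phactr4. In H4K5ac-ChIP, genes with the GC content of Phactr3 had a median of 0.09, and Phactr3 exceeded it by 0.07, compared with 0.02 at Phactr1, 0.01 at Phactr2 and -0.05 at Phactr4. Less the input ratio, the value at Phactr3 changed sign to -0.36 (-0.43 to -0.29), and less the IgG-IP ratio it was 0.28 (0.16 to 0.39), both with intervals from a normal approximation, the latter added after seeing the data. The medians of all genes for these differences were -0.25 and 0.09, and those of genes with the GC content of Phactr3 were -0.44 and 0.20. Less the input ratio, 2 of 4 members, Phactr3 and Phactr4, were past 1.2-fold lower in FC, as were 48.7% of all genes. The part of base composition in the difference at Phactr3 was not tested further.

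Along the gene, FC H4K5ac-ChIP was above CON in 19 of 20 equal bins of Phactr3, 12 of 20 at Phactr1, 12 of 20 at Phactr2 and 9 of 20 at Phactr4. FC input was above CON input in 19, 15, 13 and 16 bins for Phactr3, Phactr1, Phactr2 and Phactr4. FC IgG-IP was above CON IgG-IP in 8, 6, 7 and 8 bins in the same order. The difference at Phactr3 was therefore spread along the gene in H4K5ac-ChIP and in input, whereas IgG-IP had no such excess of FC. In 3 equal stretches counted from the first start, the log2 ratio of FC to CON H4K5ac-ChIP was 0.11, 0.23 and 0.14 at Phactr3, with intervals above 0, and 0.04, 0.02 and 0.04 at Phactr1, with intervals that included 0. At Phactr2 it was -0.02, -0.15 (-0.26 to -0.04) and 0.13 (0.02 to 0.24), and at Phactr4 -0.21 (-0.39 to -0.03), -0.08 and 0.19 (0.02 to 0.36), so its sign varied along both genes. In windows of 1 kb, FC was above CON in 61.2% at Phactr3, 52.7% at Phactr1, 46.4% at Phactr2 and 48.5% at Phactr4.

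**Figure D4:**
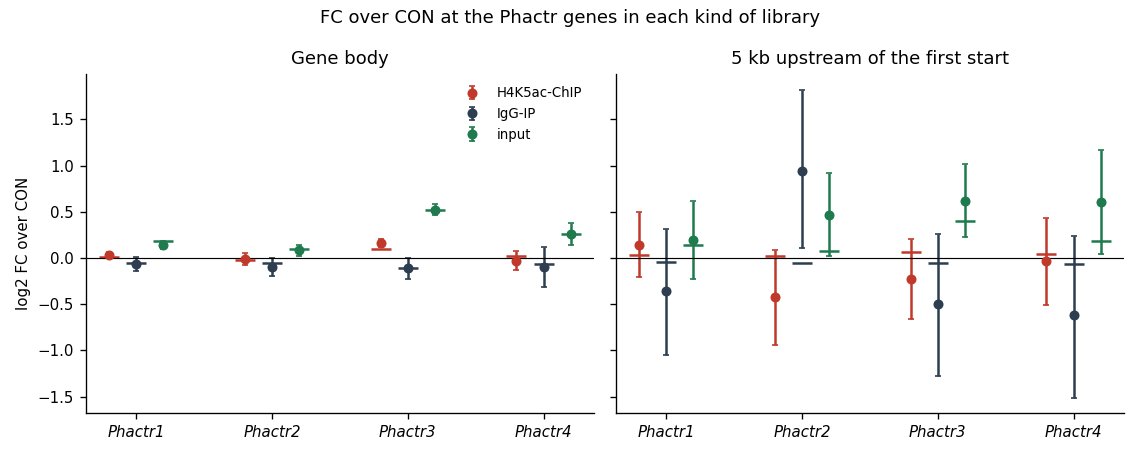
Log2 ratio of FC over CON (vertical axis) at the 4 Phactr genes in H4K5ac-ChIP, IgG-IP and input, over the gene body (left) and the 5 kb upstream of the first start (right); points are ratios of single libraries with exact 95% intervals, and the short horizontal lines are medians of protein-coding genes of the same GC content. In both panels GC content is that of the gene body. Over the body, the input points (0.52 at Phactr3) lie near their GC medians, and the H4K5ac-ChIP points are between -0.03 and 0.16.

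At the promoters, FC over CON H4K5ac-ChIP was higher past 1.2-fold in 0 of 4 (23% of all promoters) and lower in 1 of 4 (13.9% of all promoters), which was Phactr2. Phactr2 had 55 reads in FC and 84 in CON, a log2 ratio of -0.42 (-0.94 to 0.08), and its IgG-IP moved the other way with 34 and 20 reads. Phactr3 had -0.22 (-0.66 to 0.20), Phactr1 0.14 and Phactr4 -0.04, none of them separated from 0 by its interval. With promoters of 2 kb, the member past 1.2-fold lower was Phactr3, at -0.62 (-1.30 to 0.03), in place of Phactr2, at -0.11, where 17.8% of promoters were lower. At this depth a promoter difference of the size seen along Phactr3 was not detectable.

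Both genes beside Phactr3 had less H4K5ac-ChIP per kb and lower ratios to IgG-IP. Zfp931, the nearest protein-coding gene upstream (40.5 kb), had 0.249 and 0.240 RPKM in FC and CON H4K5ac-ChIP, and Sycp2, a component of the meiotic synaptonemal complex 6.80 kb downstream, had 0.344 and 0.393. Their log2 ratios over IgG-IP were 0.16 and 0.51 at Zfp931 and -0.01 and 0.05 at Sycp2. Input was low at Zfp931 as well (0.124 and 0.172 RPKM), and over input Zfp931 had 1.01 (0.52 to 1.51) in FC, an interval that includes the 0.92 of Phactr3, and 0.48 in CON. Sycp2 had 0.67 over input in FC and 0.03 in CON. At Phactr4 the downstream neighbour Rcc1, the nucleotide exchange factor of Ran, was above IgG-IP by 1.56 and 1.26 (log2), more than Phactr4 itself. Its upstream neighbour Med18, a Mediator subunit, had 0.56 and 0.91. At Phactr1, Edn1, which encodes endothelin, had 0.09 and 0.45 at a distance of 373 kb upstream, and Tbc1d7 had 0.84 and 0.69 at 13.2 kb downstream. At Phactr2, Fuca2 had 0.61 and 0.40 and Ltv1 had 0.06 and 0.28, both above Phactr2 itself in each group. The FC interval of Ltv1 (-0.28 to 0.41) included the ratio of Phactr2.

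Genes most like each member were found by the Euclidean distance over the 6 log2 densities of the gene body, among genes of at least 20 kb. For Phactr3 they were Dscaml1, a cell adhesion molecule of neurons, at a distance of 0.0638, AI480653 at 0.126 and Sh3bp5 at 0.133. Dscaml1 had 1.29 and 1.12 RPKM in FC and CON H4K5ac-ChIP and a log2 ratio of FC over CON of 0.21. Its likeness in these values follows from how it was chosen. The nearest to Phactr1 was Enox1 (0.0706), to Phactr2 Qrfpr (0.0998) and to Phactr4 Scamp1 (0.0538). Between members the distance was smallest for Phactr1 and Phactr4 (0.562) and greatest for Phactr2 and Phactr3 (2.20). The named genes were chosen as the nearest of all genes of this length. No member could therefore lie closer, and their distances are no measure of how alike the members are. The distance covers 6 values, and how far it depends on base composition and depth was not tested.

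A list of 17 genes of PP1, its regulators, actins, cofilins, the actin-responsive transcription factors and the channel Kcnt1 was measured beside the family. The list was drawn up by function, not by binding to Phactr proteins, and was not matched for GC content. Past 2-fold over IgG-IP were 10 of 17 in FC (33.4% of all genes) and 10 of 17 in CON (25%), and over input 2 of 17 in FC (4.08%) and 7 of 17 in CON (14.5%). Ratios to IgG-IP had medians of 1.18 and 1.11 compared with 0.70 and 0.61 over all genes. In FC the highest was Ppp1ca, the alpha catalytic subunit of PP1, with 1.82 (0.99 to 2.78). Ppp1r1b with 1.82 (1.39 to 2.27) and Actb with 1.80 were level with it. The lowest in FC was Myocd, the cardiac and smooth muscle coactivator myocardin, with -0.28. In CON the highest was again Ppp1ca with 2.50 (1.57 to 3.59), and the lowest was Actg1 with -0.84. Ppp1ca and Actg1 are short genes, of 3.26 and 2.85 kb, with wide intervals. Mkl1 and Mkl2, the coactivators of Srf that bind monomeric actin through RPEL repeats as Phactr proteins do, had 1.18 and 1.23 in FC, near Phactr1. The PP1 catalytic genes, which cover Ppp1ca, Ppp1cb and Ppp1cc, had 2 of 3 past 2-fold in each group.

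Between the groups, the 17 listed genes had a median log2 ratio of -0.01. Past 1.2-fold higher in FC was 1 of them, Actg1, at 0.90 (-0.26 to 2.13), where 14.9% of all genes were. Past 1.2-fold lower was 1, Cfl1, encoding cofilin, at -0.30 (-0.88 to 0.28), where 6.05% were. Both are short genes, and neither interval excluded 0. None of the PP1 catalytic genes was past 1.2-fold, with log2 ratios of -0.17 to 0.06.

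**Figure D5:**
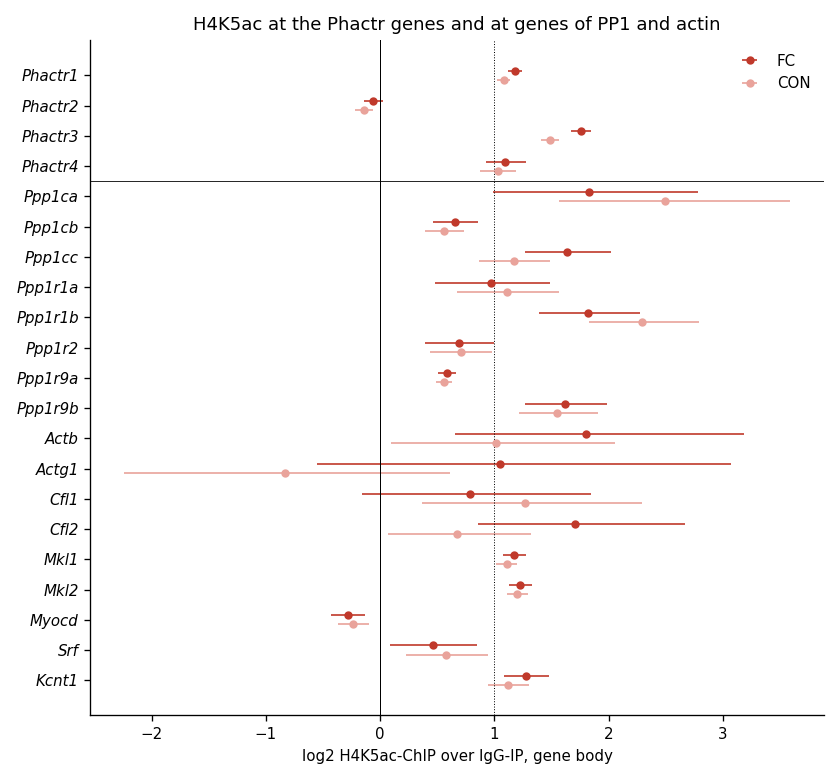
Gene body H4K5ac-ChIP against IgG-IP as a log2 ratio (horizontal axis) for the 4 Phactr genes and 17 genes of PP1 and actin, in FC (dark) and CON (light); points are ratios of single libraries, bars are exact 95% intervals, the solid vertical line is 0 and the dotted line is 2-fold. Phactr3 (1.76 and 1.48) lies among the highest, Phactr2 (-0.06 and -0.14) beside Myocd near 0, and the short genes Actb and Actg1 have wide bars.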

How the data were processed

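The authors sequenced libraries on the SOLiD platform, with reads of 50 bp, aligned them to mm9 with Bioscope v1.2.1 allowing 6 colour mismatches and up to 10 mappings, and deposited each aligned read with a mapping quality score. This deposited score was used only in an alternative that kept scores of at least 20. Groups were taken from the labels. Reads overlapping a gene from its first start to its last end (GENCODE, mm9), or the 5 kb upstream, by at least 1 bp were counted and scaled to total aligned reads. Windows, segments, exons and start regions used read midpoints. Background genes had at least 20 reads in the pair of libraries together. Named genes were the 4 members, their nearest neighbours, the genes of most similar density and a list of PP1 and actin genes. The members and lists were chosen with earlier results of these data known. Python 3.11.15, NumPy 2.4.6, SciPy 1.17.1, pysam 0.24.0 and matplotlib 3.10.9 were used, and the counting was tested on simulated data. Alternatives were distinct reads, midpoints, scores of at least 20, scaling to the median gene, input, GC content, the body without its first 2000 bp and promoters of 2 kb. The sequence before 1 further start is not reported here.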

Additional observations from a re-analysis of the deposited data

Results flagged for a closer look

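At 2 promoters the ratio of H4K5ac-ChIP to a control had opposite signs in FC and CON. At Phactr2, compared with IgG-IP, FC had a log2 ratio of -0.43 (-1.07 to 0.24) and CON a ratio of 0.95 (0.23 to 1.73). The difference was -1.37 (-2.31 to -0.44, normal approximation), from 55 and 34 reads in FC and 84 and 20 in CON. The outer part of this promoter was poorly covered, with 0 to 7 reads in each library per 500 bp bin centred 4250 to 2750 bp upstream. With promoters of 2 kb the signs over IgG-IP no longer differed, at 0.50 in FC and 1.17 in CON. With input over 5 kb the ratio was -0.61 (-1.09 to -0.14) and 0.29 (-0.19 to 0.77), a difference of -0.89 (-1.54 to -0.24). At Phactr3 the ratio to input was -0.47 in FC and 0.37 in CON, a difference of -0.84 (-1.41 to -0.28), while the ratio to IgG-IP was above 0 in both. The interval in CON (-0.05 to 0.80) included 0. The median difference over input was -0.20 for all promoters and -0.33 for genes with the gene body GC content of Phactr3. The base composition of the promoter itself was not matched. With promoters of 2 kb the ratios over input were -0.43 (-1.02 to 0.14) and 0.43 (-0.22 to 1.09) for Phactr2 and -0.74 (-1.38 to -0.12) and 0.62 (-0.01 to 1.26) for Phactr3. All but 1 of these intervals included 0, but the signs still differed between FC and CON at both genes. At Phactr3 the ratios lay further apart than over 5 kb. These intervals belong to single ratios, and none was computed for the difference over 2 kb. The differences were not tested between samples, since each side is 1 library.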

How the results depend on the processing

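Keeping 1 read per position and strand gave Phactr3 a log2 enrichment over IgG-IP of 1.66 in FC. Scaling to the median gene gave 1.05 (FC) and 0.87 (CON), the input control 0.92 and 1.28, and subtracting the median of the same GC content 0.84 and 0.71. The number of members past 2-fold, 3 in each group, became 1 in FC and 0 in CON when scaled to the median gene (7.38% and 4.25% of all genes), 0 and 1 with input (4.08% and 14.5%), and 0 and 0 less the GC median (3.06% and 2.62%). These settings lower the share of all genes past 2-fold as well, from 33.4% and 25%. With 1 read per position and strand it was 2 in CON (21.7% of all genes), as Phactr4 fell to 0.99. FC over CON H4K5ac-ChIP at Phactr3 was 0.069 less the GC median and reversed to -0.36 less the input ratio, where 2 members, Phactr3 and Phactr4, passed 1.2-fold, both lower, as did 48.7% of all genes, whose median was -0.25. Of 111 values of paralogues and promoters under an alternative, 89 stayed within their counting interval and 22 moved out of it. Promoter intervals were wider than those of gene bodies, so promoter values could shift further and still stay within. Input was not among the alternatives for promoter ratios to IgG-IP. Over input, Phactr3 in FC (-0.47, against -0.07 to 1.30) and Phactr4 in CON (0.98, against -0.37 to 0.85) left these intervals. The other promoter ratios over input stayed within theirs. No paired analysis was possible because each group had 1 library per antibody. Depth limited the promoters, with 19 to 164 reads each, and the gene bodies of Phactr4 in IgG-IP, with 330 and 400 reads. Without replicates, no interval includes the spread between animals. Reads with up to 10 mappings were kept by the authors, and their share at these genes was not analysed here.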
